A study of Mus musculus with 6 samples.

Results

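The voltage-gated sodium and calcium channel genes are the genes for the pore-forming and auxiliary subunits of the channels that carry sodium and calcium into a depolarised cell. They were taken as every protein-coding gene with a symbol of the form *Scn* plus a number and a or b, *Cacna1*, *Cacna2d*, *Cacnb* or *Cacng*, whatever its expression. 40 of the 55421 genes listed were members, and 37 of the 16575 genes with enough counts to be tested. The members comprise 10 sodium channel alpha subunits, 4 sodium channel beta subunits, 10 calcium channel alpha1 subunits, 4 alpha2delta subunits, 4 beta subunits and 8 genes of the gamma family.

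RNA was sequenced from whole retinas of 2-month-old mice, 3 from controls (Yapfl/fl; YR612, YR613, YR615) and 3 from *Yap* cKO mice (Yapfl/fl;RaxCreERT2; YR711, YR713, YR714), described as independent biological replicates. Both groups carried the floxed *Yap* alleles and received 4-hydroxytamoxifen (4OH-T), the ligand that activates CreERT2, at P10 and P14. The controls did not carry the Cre transgene. Cre is driven by *Rax*, and the study gives its postnatal expression as restricted to Müller glia and the non-pigmented epithelium of the ciliary body, which does not include the neurons of the retina. In RNA from a whole retina, a lower number of cells of one type and less RNA per cell cannot be told apart. Total counts were 24261799 in YR612, 26937920 in YR613, 28641877 in YR615, 25972334 in YR711, 35067068 in YR713 and 26170371 in YR714.

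Voltage-gated sodium channels consist of a large alpha subunit, which forms the pore and senses voltage, and small beta subunits that alter gating and placement. They give rise to the action potentials of retinal ganglion cells and of some amacrine and bipolar cells. Calcium channels are built around an alpha1 subunit, with alpha2delta and beta subunits that govern its trafficking and gating, and in photoreceptors and bipolar cells L-type calcium channels drive the continuous release of glutamate at ribbon synapses. Most genes of the gamma family encode AMPA receptor partners (TARPs) and not subunits of the calcium channel.

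*Yap1*, the gene deleted, had 9.48, 9.52 and 9.83 TPM in the controls (YR612, YR613, YR615) and 3.99, 3.76 and 3.94 TPM in the cKO retinas (YR711, YR713, YR714). The groups did not overlap, and the log2 fold change was -1.36 (SE 0.0928, adjusted p = 0.000282, edgeR). Here and below, values per retina are listed in this order, and TPM (transcript abundance per unit of length) is the count scaled by exonic length and by the total of the retina. A fold change compares the cKO with the control group on the log2 scale, with the quasi-likelihood test of edgeR and the Benjamini-Hochberg adjustment over all tested genes. A gene was called differentially expressed, by the criteria of the study, where the adjusted p did not exceed 0.05, the groups differed by 1.5-fold or more in either direction and 1 group reached a mean of 5 TPM.

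The retinas differed in how expression followed gene length, which bears on these genes because they are long. Expression in each retina was set against the 6-retina mean of each gene, and its Spearman's rho with exonic length across the 37 tested members was -0.65 for YR612 and -0.695 for YR615, but 0.386 for YR613, the other control. Of the cKO retinas, YR711 and YR713 had values of 0.655 and 0.618, and YR714 one of 0.0832. Across all 16575 tested genes the rho was -0.413, 0.172 and -0.405 in YR612, YR613 and YR615. It was 0.396, 0.385 and -0.151 in YR711, YR713 and YR714. Control YR613 thus stood apart from the other controls and the cKO YR714 from the other cKO retinas, and members share these libraries. For members whose adjusted p by edgeR passed 0.05 when a single retina was left out, these values are given below, together with those from a correction in which a curve of relative expression on length was removed from each retina.

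Of the members that passed an adjusted p of 0.05 after the length correction, the promoter of the 1 that was lower, *Scn7a*, is shown. It is given 5′ to 3′ on the gene's strand, from 250 bases before to 50 bases after the transcription start, from RefSeq (GRCm38.p6). Capitals mark GGAATG or, on the other strand, CATTCC, the core of the motif recognised by the TEAD factors to which YAP binds. *Scn7a* lies on the reverse strand (chr2:66784861-66785160).
Scn7a: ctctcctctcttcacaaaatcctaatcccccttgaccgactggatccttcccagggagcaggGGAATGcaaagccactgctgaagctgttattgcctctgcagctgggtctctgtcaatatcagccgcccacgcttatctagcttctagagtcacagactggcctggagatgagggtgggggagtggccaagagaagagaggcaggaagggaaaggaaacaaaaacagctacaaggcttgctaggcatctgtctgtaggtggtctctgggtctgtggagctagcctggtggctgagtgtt
The letters occur once in this window. Only a window that held the motif was to be shown, so its presence here was fixed by that choice. Among the members that passed and were higher, the window of *Cacng3* held the motif and that of *Cacna1i* did not. Of the 40 members, 30 matched a promoter entry, with 41 windows in all because some genes have several starts. The motif was in 10 of these 41 windows (24.4%), against 4817 of 32851 windows of all genes (14.7%). These are matches of letters and not measured binding.

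Most members had a higher mean in the cKO retinas, but few differences passed the test against the spread between retinas. Of the 37 tested members, 30 had a log2 fold change above 0 and 7 below 0, against 8329 above and 8246 below among all tested genes. The members' median log2 fold change was 0.24, against 0.0017 over all tested genes, and their range was from -0.58 for *Scn7a* to 0.64 for *Cacna1c*. 1 member, *Cacna1i*, passed an adjusted p of at most 0.05, where 1.49% of all tested genes did. No member met every criterion of the edgeR quasi-likelihood call, which 0.796% of all tested genes met. At an unadjusted p of at most 0.05 there were 22 members, 21 higher and 1 (*Scn7a*) lower, against 21.4% of all tested genes. By length, 2 of 10 members under 5000 bases passed, 10 of 15 of 5000 to under 10000 and 10 of 12 of at least 10000. Over all tested genes of these lengths, 1788 of 10073, 1142 of 5027 and 619 of 1475 passed. The likelihood ratio test of edgeR, which allows less for uncertainty in the dispersion, gave 11 members an adjusted p of at most 0.05, 10 higher and 1 lower, against 6.18% of all tested genes. By this test and by the Wald test of DESeq2, 1 member (*Scn3a*) met every criterion, as did 1.76% and 1.59% of all tested genes, and limma-voom called no member and 141 of all tested genes.

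**Figure D1:**
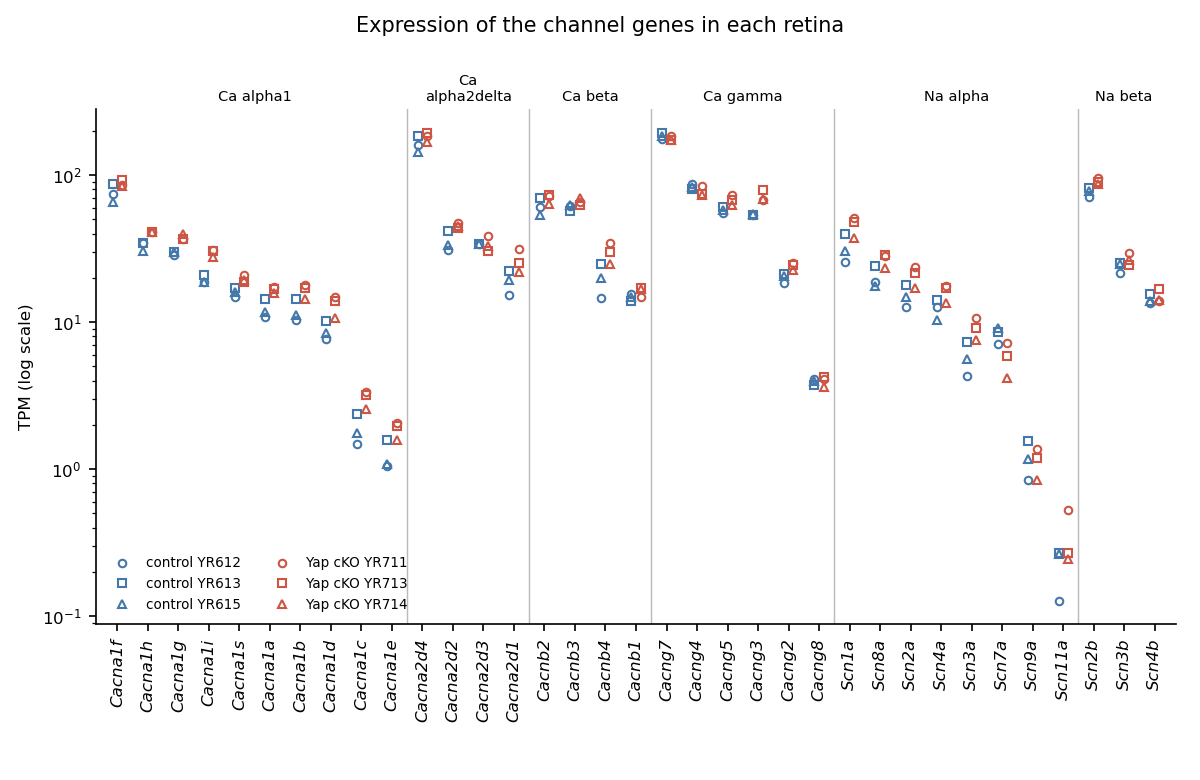
TPM of 35 of the 37 tested channel genes in each retina on a log axis, grouped by subunit class and ordered by mean within a class. Each symbol is 1 retina, with controls in blue and *Yap* cKO in red; *Cacng7* and *Cacna2d4* are the most abundant members, and the red symbols lie above the blue ones for 9 of the 10 alpha1 subunits.

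In 17 of the 37 members every cKO retina had a higher TPM than every control, and in 0 did every cKO retina have a lower one. Over all tested genes these shares were 15.2% and 9.04%. With the length curve of each retina removed, 15 members lay above in every cKO retina and 1, *Scn7a*, below, against 11.7% and 12.7% of all tested genes. The 27 members of at least 5000 exonic bases held 13 of the 17, where the share among all tested genes of this length was 22.0%. For a single gene, an exact permutation test of 3 against 3 retinas cannot give a two-sided p under 0.1, so a lack of overlap alone does not reach 0.05.

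The calcium channel alpha1 subunits form the pore of each calcium channel. All 10 had a log2 fold change above 0, also with the length correction, with a median of 0.40 before it and 0.18 after it. Before it, 3328 of 5027 tested genes of 5000 to under 10000 bases were above 0, and 1283 of 1475 of at least 10000. With it, 8282 of all 16575 tested genes were. In 9 of the 10 alpha1 subunits every cKO retina lay above every control, as in 15.2% of all tested genes and 22.0% of those of at least 5000 bases. With the length curve removed this held for 7, against 11.7% of all tested genes, since the groups of *Cacna1g* and *Cacna1h* then overlapped. Summed over the 10 genes, expression was 202.8, 232.4 and 194.5 TPM in the controls and 271.0, 272.5 and 256.4 TPM in the cKO retinas, so the sums did not overlap. The ratio of the mean sums was 1.27.

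*Cacna1i* (ENSMUSG00000022416, chromosome 15, 80287238 to 80398279, GRCm38), a low-voltage-activated T-type channel, had 18.6, 21.02 and 18.8 TPM in the controls and 30.9, 30.3 and 27.6 TPM in the cKO retinas. The lowest cKO retina was above the highest control by more than the range within either group. The log2 fold change was 0.55 (SE 0.0753, n = 3 per group, adjusted p = 0.00999 by edgeR), a fold of 1.46 that is under the minimum of 1.5. After length correction it was 0.40 (adjusted p = 0.0127). When single retinas were left out, it ranged from 0.52 to 0.58, and its adjusted p stayed at or under 0.05 in 3 of these 6 fits and reached 0.0814. The other T-type channels had smaller differences. *Cacna1g* had 28.6, 29.7 and 30.1 TPM in the controls and 36.7, 36.5 and 39.6 TPM in the cKO retinas (log2 fold change 0.29, adjusted p = 0.0904). *Cacna1h* had 34.5, 34.7 and 30.4 TPM against 40.8, 41.0 and 41.0 TPM (0.24, adjusted p = 0.145). The groups did not overlap in either gene, but with the length correction the log2 fold changes were 0.14 and 0.09.

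Among the L-type channels, *Cacna1f*, the channel of photoreceptor ribbon synapses and the most abundant alpha1 subunit, was the only one of the 10 whose groups overlapped. It had 74.8, 87.2 and 65.1 TPM in the controls and 86.05, 93.1 and 83.8 TPM in the cKO retinas, with a log2 fold change of 0.16 (SE 0.102, adjusted p = 0.391). *Cacna1d*, the L-type channel of many neurons, had 7.64, 10.2 and 8.45 TPM against 14.8, 13.9 and 10.7 TPM (0.53, adjusted p = 0.0726). *Cacna1c*, best known from heart and smooth muscle, had the largest log2 fold change of any tested member, 0.64 (SE 0.161, adjusted p = 0.0861). Its TPM was low, at 1.47, 2.38 and 1.76 in the controls and 3.33, 3.18 and 2.58 in the cKO retinas, and its exonic length was 21191 bases. Corrected for length, the log2 fold changes of *Cacna1d* and *Cacna1c* were 0.27 and 0.31, neither with an adjusted p of at most 0.05. The adjusted p of *Cacna1d* by edgeR was 0.0192 without YR613, 0.0147 without YR714 and between 0.165 and 0.292 without any other retina. For *Cacna1c* it was 0.0126 without YR613, 0.0328 without YR714 and between 0.181 and 0.312 without any other.

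*Cacna1s* is known as the voltage sensor of skeletal muscle and *Scn4a* as its sodium channel, yet both were among the expressed members. *Cacna1s* had 14.9, 17.1 and 16.1 TPM in the controls and 20.8, 18.7 and 19.3 TPM in the cKO retinas (log2 fold change 0.23, adjusted p = 0.158). *Scn4a* had 12.7, 14.1 and 10.4 TPM against 17.7, 17.1 and 13.6 TPM (0.32, adjusted p = 0.203). The groups overlapped for *Scn4a* and did not for *Cacna1s*. Of 9 marker genes of skeletal muscle, *Myl1*, *Tnnt3*, *Myh2* and *Myh4* had mean TPM under 0.1. *Acta1* had a mean of 4.68 TPM in the controls and 4.20 TPM in the cKO retinas, and the most abundant, *Mylpf*, had 9.99, 10.4 and 9.68 TPM in the controls and 6.04, 6.06 and 8.54 TPM in the cKO retinas. Summed over the 9 genes, these markers were at 16.9 ± 0.672 TPM (SD, n = 3) in the controls and 12.7 ± 1.62 TPM in the cKO retinas. Their part in the levels of both channel genes was not tested. *Cacng1*, the gamma subunit of the muscle channel, had 3, 3 and 2 counts in the controls and 0, 1 and 1 in the cKO retinas and was not tested.

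The presynaptic channels *Cacna1a* (P/Q-type), *Cacna1b* (N-type) and *Cacna1e* (R-type) had log2 fold changes of 0.39, 0.41 and 0.54, with adjusted p of 0.0803, 0.106 and 0.121 by edgeR. *Cacna1a* had a mean of 12.2 ± 1.80 TPM in the controls and 16.6 ± 0.874 TPM in the cKO retinas (SD, n = 3). In none of the 3 did the groups overlap. In YR613, the highest control for each of the 3 genes, their TPM was 14.2, 14.2 and 1.57. Length-corrected log2 fold changes were 0.19, 0.26 and 0.17. Without YR613 the adjusted p by edgeR was 0.0120, 0.0176 and 0.0202, and without YR714 it was 0.0519, 0.0430 and 0.0474. Without any other retina it was at least 0.173 for *Cacna1a*, 0.236 for *Cacna1b* and 0.248 for *Cacna1e*.

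**Figure D2:**
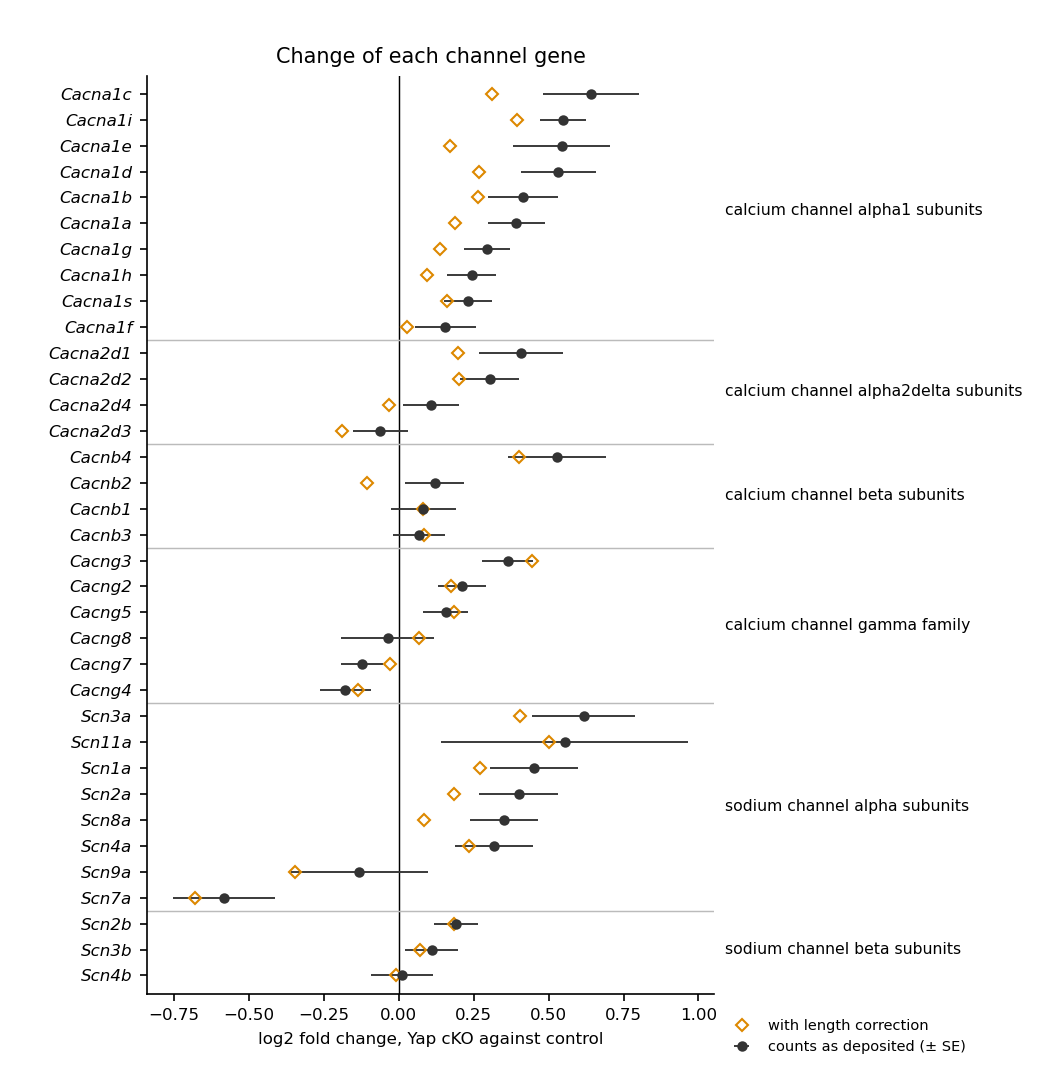
Log2 fold change of *Yap* cKO against control retinas for 35 of the 37 tested channel genes by subunit class. Filled circles with bars are the values ± SE from the counts as deposited and open diamonds the values with the length correction; the diamonds of the alpha1 subunits and most sodium alpha subunits lie closer to 0, whereas *Scn7a* moves from -0.58 to -0.68, *Scn9a* from -0.13 to -0.35 and *Cacng3* from 0.36 to 0.44.

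The sodium channel alpha subunits divided by gene. Of the 9 tested, 7 had a log2 fold change above 0 and 2, *Scn7a* and *Scn9a*, below 0, with a median of 0.35 and none past an adjusted p of 0.05. That of *Scn9a* turned to 0.09 without YR613 and to 0.02 without YR714. Summed over the class, expression was 84.9, 117.3 and 92.6 TPM in the controls and 144.4, 135.4 and 108.2 TPM in the cKO retinas. The sum of control YR613 was above that of cKO YR714.

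*Scn1a*, the most abundant alpha subunit and the channel of fast-spiking neurons, had 25.4, 39.7 and 30.5 TPM in the controls and 50.8, 47.5 and 37.4 TPM in the cKO retinas. Control YR613 was above cKO YR714, and the log2 fold change of 0.45 (SE 0.147) had an adjusted p of 0.138 by edgeR. Without YR613 the adjusted p was 0.0211 by edgeR, without YR714 it was 0.0428, and without any of the other 4 retinas it was between 0.309 and 0.405. With the length correction the log2 fold change was 0.27. *Scn8a* and *Scn2a*, which with *Scn1a* are the main sodium channels of central axons, had log2 fold changes of 0.35 and 0.40, 0.09 and 0.18 with the length correction, and overlapping groups. Their adjusted p by edgeR was 0.0243 and 0.0359 without YR613, 0.0547 and 0.0402 without YR714, and at least 0.286 and 0.323 without any other retina.

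*Scn3a* (chromosome 2, 65457118 to 65567627), a channel expressed mainly before birth in the brain, had 4.27, 7.36 and 5.60 TPM in the controls and 10.7, 9.10 and 7.59 TPM in the cKO retinas. The groups were next to each other without overlapping, with 7.36 TPM in control YR613 and 7.59 TPM in cKO YR714. The log2 fold change was 0.62 (SE 0.173), with an adjusted p of 0.107 by the quasi-likelihood test, 0.0233 by the likelihood ratio test and 0.0159 by DESeq2. Corrected for length it was 0.41 (adjusted p = 0.0918). By the quasi-likelihood test of edgeR the adjusted p was 0.0163 without YR613, 0.0385 without YR714 and between 0.238 and 0.338 without any of the other 4 retinas.

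*Scn7a* (chromosome 2, 66673425 to 66784914) encodes an atypical channel that senses extracellular sodium and is known from glia and sensory neurons. It had 7.15, 8.59 and 9.06 TPM in the controls and 7.17, 5.90 and 4.19 TPM in the cKO retinas, and had the lowest log2 fold change of any tested member, -0.58 (SE 0.171, adjusted p = 0.116). The groups touched, with 7.15 TPM in control YR612 and 7.17 TPM in cKO YR711. With the length correction the log2 fold change was -0.68 (adjusted p = 0.0460), which met every criterion, as did 140 of all 16575 tested genes. In log2 expression relative to the 6-retina mean, the groups did not overlap before or after the length curve was removed. The median log2 fold change of all tested genes in the length decile of *Scn7a* was 0.12.

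*Scn3a* and *Scn7a* lie in 1 cluster on chromosome 2 with *Scn1a*, *Scn2a* and *Scn9a*, and their balance was examined after the values were seen. The ratio of *Scn3a* to *Scn7a* TPM was 0.597, 0.856 and 0.618 in the controls and 1.496, 1.54 and 1.81 in the cKO retinas. *Scn7a* was thus the more abundant of the pair in every control and *Scn3a* in every cKO retina. Among the tested sodium channel alpha subunits *Scn7a* had the lowest and *Scn3a* the highest log2 fold change, so the ratio restates these differences. On the log2 scale the ratio was -0.55 ± 0.287 (SD, n = 3) in the controls and 0.69 ± 0.150 in the cKO retinas. *Scn3a* has 12717 exonic bases and *Scn7a* 7338, and with the length correction their log2 fold changes were 0.41 and -0.68. The subunits of this family are alike in sequence, and how reads that fit several of them were counted is not given in the sources used here.

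Other alpha subunits were low. *Scn9a*, known from pain-sensing neurons, had a mean of 1.19 ± 0.362 TPM in the controls and 1.13 ± 0.261 TPM in the cKO retinas (SD, n = 3). *Scn11a*, another channel of pain-sensing neurons, had 0.128, 0.271 and 0.263 TPM against 0.528, 0.271 and 0.247 TPM, and its log2 fold change of 0.55 (SE 0.412, adjusted p = 0.448) was 0.17 without cKO YR711. *Scn10a* had no count in any retina, where 3 counts would have been between 0.0433 and 0.0590 TPM.

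**Figure D3:**
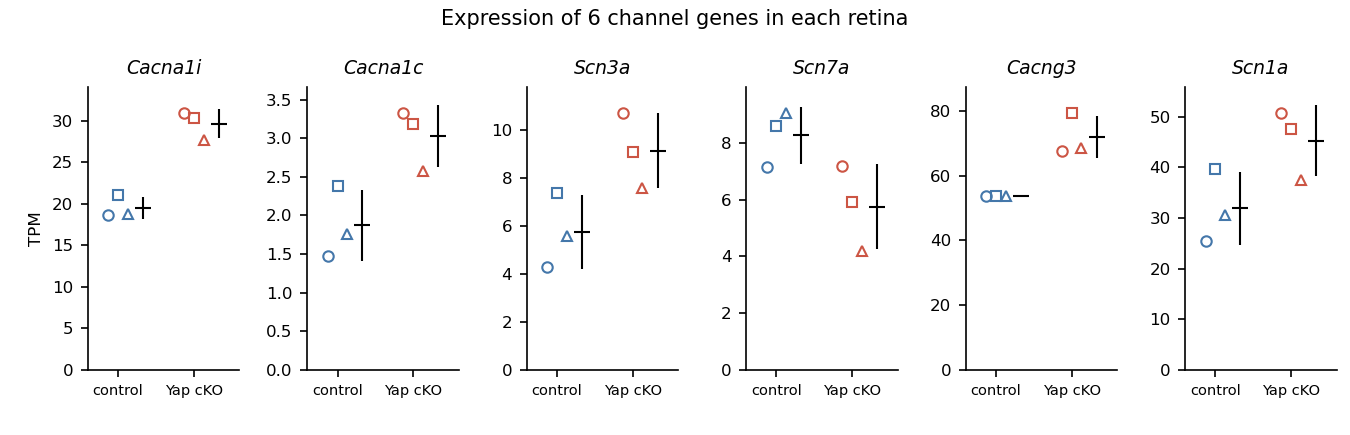
TPM of 6 channel genes in each retina, with the mean ± SD (n = 3) as a black bar beside each group. Circles, squares and triangles are YR612, YR613 and YR615 in the controls and YR711, YR713 and YR714 in the *Yap* cKO group; the groups are apart for *Cacna1i*, *Cacna1c*, *Scn3a* and *Cacng3* and meet or overlap for *Scn7a* and *Scn1a*.

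The auxiliary subunits differed less between the groups. Of the 18 tested, 13 had a log2 fold change above 0, and their median was 0.11, against 0.39 for the 19 pore-forming subunits. The auxiliary subunits are also shorter, with a median exonic length of 4819 against 10137 bases for the pore-forming ones. Their medians after length correction were 0.08 and 0.18.

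The sodium channel beta subunits had log2 fold changes above 0 in 3 of 4 genes, with a median of 0.06, and in 2 of 4 with the length correction. *Scn2b* had 70.8, 81.2 and 77.6 TPM in the controls and 96.1, 90.1 and 86.3 TPM in the cKO retinas without overlap (0.19, adjusted p = 0.185). *Scn3b* and *Scn4b* had log2 fold changes of 0.11 and 0.01 and overlapping groups.

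The alpha2delta subunits carry calcium channels to the membrane. *Cacna2d4*, the partner of *Cacna1f* in photoreceptors, was the most abundant, with 159.4, 182.8 and 143.4 TPM in the controls and 184.2, 193.5 and 166.9 TPM in the cKO retinas. The groups overlapped, with a log2 fold change of 0.11 (adjusted p = 0.521) and of -0.03 with the length correction. *Cacna2d2* had 31.1, 41.8 and 33.3 TPM against 47.2, 43.9 and 45.1 TPM (0.30, adjusted p = 0.137, and by edgeR 0.0205 without YR613 and between 0.126 and 0.410 without any other retina). Its length-corrected log2 fold change was 0.20. *Cacna2d1*, the target of gabapentin, had a log2 fold change of 0.41 (adjusted p = 0.152), and of 0.20 with the length correction. *Cacna2d3* was at 34.0 ± 0.197 TPM in the controls and 34.0 ± 3.99 TPM in the cKO retinas (SD, n = 3). Its log2 fold change was -0.06 (adjusted p = 0.714 by edgeR), where the median of all tested genes in its length decile was 0.12. With the length correction it was -0.19 (adjusted p = 0.278 by edgeR).

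The calcium channel beta subunits had log2 fold changes above 0 in 4 of 4 genes and, with the length correction, in 3 of 4, with a median of 0.10 before it and 0.08 after it. *Cacnb2*, the beta subunit of photoreceptor calcium channels, had 60.2, 70.0 and 53.6 TPM in the controls and 71.6, 73.0 and 63.1 TPM in the cKO retinas. The groups overlapped, and the log2 fold change was 0.12 (adjusted p = 0.498) and, with the length correction, -0.11. *Cacnb4*, a neuronal beta subunit, had the widest difference of the class, with 14.6, 24.8 and 19.9 TPM against 34.3, 29.9 and 24.7 TPM (0.53, adjusted p = 0.128). It overlapped by 1 pair, control YR613 and cKO YR714, and the adjusted p was 0.0218 without YR613, 0.0461 without YR714 and between 0.283 and 0.368 without any of the other 4 retinas. Corrected for length, the log2 fold change was 0.40 (adjusted p = 0.109). *Cacnb1* and *Cacnb3* had log2 fold changes of 0.08 and 0.07.

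In the gamma family, 3 of the 6 tested members were above and 3 below 0. *Cacng7*, the most abundant of all members, had 176.9, 194.1 and 183.4 TPM in the controls and 184.1, 172.2 and 173.3 TPM in the cKO retinas (log2 fold change -0.12, adjusted p = 0.324). *Cacng4* had 87.2, 79.9 and 83.0 TPM against 83.7, 73.9 and 72.9 TPM (-0.18, adjusted p = 0.261), and the groups of both genes overlapped.

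*Cacng3* (chromosome 7, 122670492 to 122769393), a TARP of central neurons, is described because of its value with the length correction and not by the rule for named genes. It had 53.6, 53.7 and 53.9 TPM in the controls and 67.6, 79.5 and 68.7 TPM in the cKO retinas. The controls were nearly equal, and every cKO retina was above them. The log2 fold change was 0.36 (SE 0.0853, adjusted p = 0.0730) and with the length correction 0.44 (adjusted p = 0.0226). At 2777 exonic bases it is shorter than most members, and the median of all tested genes in its length decile was -0.06. *Cacng2* and *Cacng5*, also TARPs, had log2 fold changes of 0.21 and 0.16 without overlap between groups, and *Cacng8*, which shares 3.88% of its exonic bases with another gene on its strand, one of -0.04. *Cacng6* had no count in any retina.

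Across the 37 members, the log2 fold change followed exonic length with a Spearman's rho of 0.59, and across all 16575 tested genes with a rho of 0.391. Within the 19 pore-forming subunits the rho was 0.39 and within the 18 auxiliary ones 0.54. The members' log2 fold change also followed mean TPM, with a rho of -0.40, against -0.04 over all tested genes. Exonic length and mean TPM had a rho of -0.39 across members, against 0.03 over all tested genes. Members are not independent replicates, since they share the 6 libraries and many resemble each other in length. The median exonic length of the members was 8764 bases, against 4132 for all tested genes, and 87.1% of tested genes were shorter. By length, the members' median log2 fold change was 0.04 for 10 members under 5000 bases, 0.24 for 15 members of 5000 to under 10000 bases and 0.40 for 12 members of at least 10000 bases. The medians of all tested genes of the same lengths were -0.07, 0.08 and 0.22.

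Most members also lay above other genes of their own length. Of the 37 members, 28 had a log2 fold change above the median of all tested genes in their own length decile, and the median of the differences was 0.17. In the longest decile, 13 of the 15 members were above its median of 0.21. With the length correction, 28 members were above 0 and 9 below, with a median of 0.17, while the median of all tested genes was near 0. The rho with length across members was 0.226, and it was 0.03 within the pore-forming subunits and 0.07 within the auxiliary ones. 3 members then had an adjusted p of at most 0.05 (*Cacna1i* and *Cacng3*, higher, and *Scn7a*, lower), against 2.49% of all tested genes. The members that stood below their decile's median included *Scn7a*, *Scn9a*, *Cacna2d3* and *Cacnb2*.

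**Figure D4:**
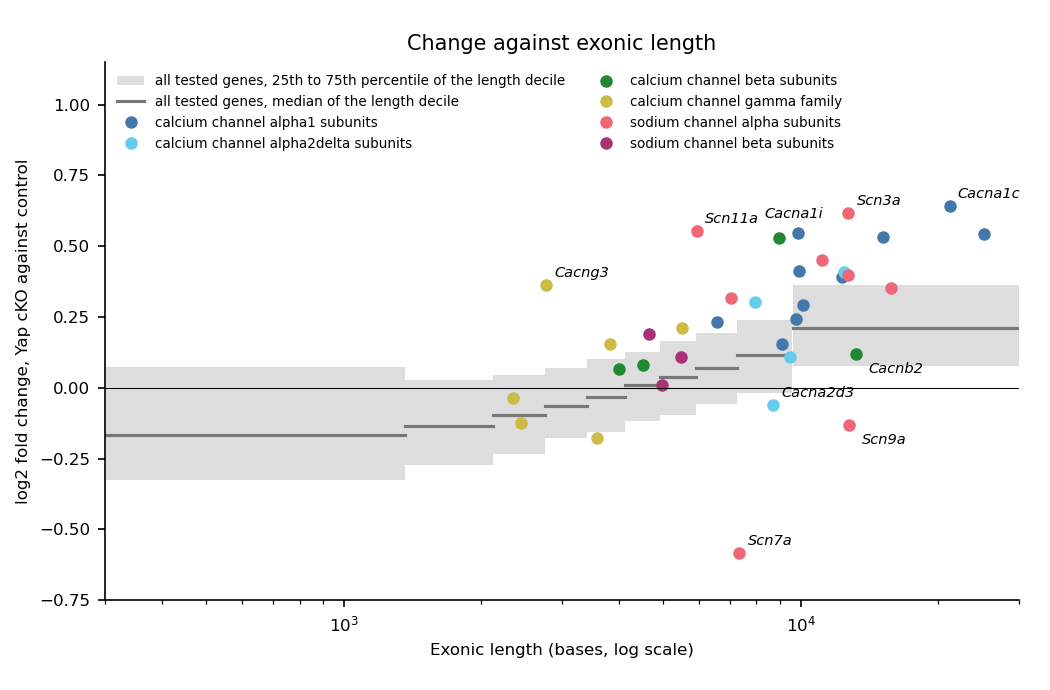
Log2 fold change of *Yap* cKO against control retinas over exonic length on a log axis, with 1 point for each of 35 of the 37 tested channel genes, coloured by subunit class. Grey lines and bands are the median and the 25th to 75th percentile of all tested genes in each decile of length; 27 of the 35 points lie above the grey line of their decile and *Scn7a* lies furthest below it.

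Single retinas did not all follow their group. For the 12 members of at least 10000 bases, the median log2 difference of a retina from the 6-retina mean was -0.40 in YR612, 0.03 in YR613 and -0.27 in YR615, and 0.39 in YR711, 0.26 in YR713 and 0.02 in YR714. For all 1475 tested genes of this length the medians were -0.21, 0.07 and -0.19 in the controls and 0.20, 0.16 and -0.02 in the cKO retinas. By the members' medians control YR613 lay slightly above cKO YR714, and the other 2 controls lay far below the other 2 cKO retinas. In 6 of these 12 members every cKO retina had a higher TPM than every control, as in 355 of the 1475 genes. For the 15 members of 5000 to under 10000 bases the medians were -0.17, -0.0011 and -0.23 in the controls and 0.16, 0.12 and 0.05 in the cKO retinas. Leaving out a retina moved the number of members with an adjusted p of at most 0.05 between 0 and 12. It was 12 without control YR613, when 8.84% of all tested genes passed, and 9 without cKO YR714, when 5.89% did. It was 1 without cKO YR711 and 0 without control YR612, control YR615 or cKO YR713.

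**Figure D5:**
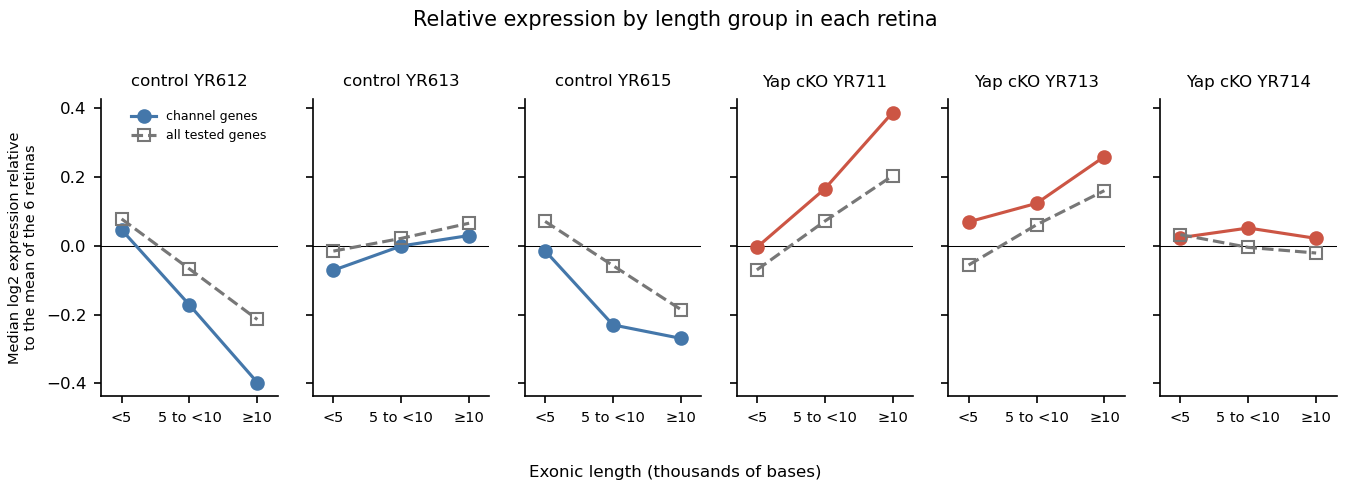
Median log2 difference of each retina from the 6-retina mean of a gene, for 3 groups of exonic length. Filled circles are the channel genes (10, 15 and 12 genes) and open squares all tested genes; the lines slope down in controls YR612 and YR615, up in *Yap* cKO YR711 and YR713, and are nearly flat in YR613 and YR714.

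Genes whose products bind or position these channels were examined as lists. Of 16 sodium channel partners, 14 had a log2 fold change above 0, with a median of 0.22, and none had an adjusted p of at most 0.05 by edgeR. 8 of them, all higher, passed an unadjusted p of 0.05, where 21.4% of all tested genes did. The median was 0.10 with the length correction. Calmodulin, here *Calm2*, was the most abundant, at 1253, 1341 and 1486 TPM in the controls and 1456, 1374 and 1345 TPM in the cKO retinas. *Fgf14* and the axon initial segment anchor *Ank3* had log2 fold changes of 0.60 and 0.53 (adjusted p = 0.110 and 0.142), and of 0.61 and 0.09 with the length correction. Of 24 tested calcium channel partners, 13 were above 0 and 11 below, with a median of 0.12, and none passed an adjusted p of 0.05, with 10 higher and 2 lower at an unadjusted p of 0.05, a cut-off that 21.4% of all tested genes met. The log2 fold changes ran from -0.78 for *Stac*, an adaptor of L-type channels that was lower in every cKO retina (adjusted p = 0.0880), to 0.57 for the calcium release channel *Ryr2* (adjusted p = 0.0893), and with the length correction these were -0.69 and 0.16. The most abundant of this list was the vesicle protein gene *Rab3a*, at 695.9, 616.9 and 683.1 TPM in the controls and 613.1, 580.9 and 668.1 TPM in the cKO retinas. With the length correction the active zone gene *Rims2* and *Stac2*, related to *Stac*, passed an adjusted p of 0.05. In a list of related cation channels, 11 of 12 tested genes were above 0, with a median of 0.22. None passed an adjusted p of 0.05, where 1.49% of all tested genes did. At an unadjusted p of 0.05 there were 6, all higher, against 21.4% of all tested genes. With the length correction *Hcn3*, a pacemaker channel gene, passed (0.44, adjusted p = 0.0377), when 2.49% of all tested genes did. The counts at an adjusted p of at most 0.05 by edgeR depended on single retinas. Without YR613 they were 5 sodium channel partners, 9 calcium channel partners and 4 related cation channels, when 8.84% of all tested genes passed. Without YR714 they were 4, 6 and 3, when 5.89% did, and without any of the other 4 retinas they were 0.

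Markers of the cell types that hold these channels did not all move with them. The medians of the marker genes were log2 fold changes of -0.06 for rods (8 genes), 0.03 for cones (8 genes), 0.17 for bipolar cells (10 genes), 0.21 for amacrine cells (10 genes), 0.43 for horizontal cells (5 genes) and 0.02 for retinal ganglion cells (10 genes). In these lists 1 gene, the bipolar cell receptor gene *Grm6*, passed the edgeR test (adjusted p = 0.0249), where 1.49% of all tested genes did. With the length correction the medians for bipolar, amacrine and horizontal cells were 0.11, 0.13 and 0.26. The cone gene *Arr3* then also passed (adjusted p = 0.0207), when 2.49% of all tested genes did. Without YR613 the numbers of bipolar, amacrine and horizontal cell markers that passed were 2, 3 and 3, when 8.84% of all tested genes passed, and without YR714 they were 2 in each list, when 5.89% did. Without any of the other 4 retinas none passed, *Grm6* included. The summed ganglion cell markers were at 2394 ± 154.5 TPM (SD, n = 3) in the controls and 2437 ± 137.2 TPM in the cKO retinas, with *Nefl* the most abundant. The summed amacrine cell markers were at 2033 ± 111.1 and 2108 ± 59.7 TPM. For Müller glia, the cells in which *Yap* was deleted, 4 of 10 markers had a log2 fold change above 0 and 6 below. *Kcnj10*, a potassium channel gene, had a higher TPM in every cKO retina (0.28, adjusted p = 0.126) and *Rlbp1*, a retinoid carrier gene, a lower one (-0.36, adjusted p = 0.0540), both named after their values were seen. *Rlbp1* passed with the length correction (-0.29, adjusted p = 0.0395), and 3 of the 10 markers passed without YR613 (8.84% of all tested genes), 2 without YR714 (5.89%) and 0 without any of the other 4 retinas. The 10 markers summed to 7161 ± 113.9 TPM in the controls and 6426 ± 224.2 TPM in the cKO retinas. Their median log2 fold change was -0.18 and *Glul* was the most abundant. The groups did not overlap in this sum. 7 melanin pigment genes summed to 77.8 ± 3.63 TPM in the controls and 32.5 ± 16.6 TPM in the cKO retinas (SD, n = 3). The part of these markers in the differences of the channel genes was not tested.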

How the data were processed

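Whole retinas from 3 control and 3 *Yap* cKO mice were analysed, grouped by the labels. The deposited values are counts per gene, which the authors obtained from paired-end, stranded reads with STAR (2.7.3a) on GRCm38 and featureCounts (1.6.2, strand setting 2, per the file header). The file header names annotation release 98. How reads that fit several genes were treated is not given in the sources used here. No per-sample column was left unmapped (0).

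Counts were scaled by TMM (factors 0.986 to 1.02) and tested with the edgeR quasi-likelihood test (edgeR 4.0.16, R 4.3.3) without covariates over the 16575 genes kept by its default filter on low counts, with Benjamini-Hochberg adjustment over all of them. The tests were also run on simulated data. TPM was computed from the counts and the exonic lengths in the table. The call criteria were those of the study (adjusted p up to 0.05, 1.5-fold or more, mean of 5 TPM or more in 1 group). The length correction removed from each retina a loess curve (span 0.3) of relative log2 expression on log2 exonic length and entered it as offsets. Total counts of 24261799 to 35067068 limit members of a few counts, and a count of 0 allows up to 3 counts, for counting error only.

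The members, the 3 lists of related genes and the 16 lists of cell type markers were chosen with earlier results of these data known. Values per retina are given for members with an adjusted p of at most 0.05, for the 3 highest and 3 lowest log2 fold changes, for the most abundant of each class and for members called by the likelihood ratio test. Values per retina of any other gene were chosen after they were seen. Alternatives were DESeq2 (1.42.0), the edgeR likelihood ratio test, limma-voom (limma 3.58.1), other size factors, other filters, other call minimums, the length correction and each retina left out. Gene and promoter positions are 1-based on GRCm38. Values of some members and genes that these rules would name, and some sequences, are not reported here.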

Additional observations from a re-analysis of the deposited data

How the results depend on the processing

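In the alternatives run, the median log2 fold change of the channel genes stayed above 0 and the rho between log2 fold change and length stayed positive, at 0.59 against 0.226 with length-corrected offsets. The adjusted p was at or under 0.05 for 1 channel gene, when 1.49% of all tested genes passed. It was so for 11 with DESeq2 (5.38% of all tested genes) or the edgeR likelihood ratio test (6.18%), 15 with no filter on low counts (6.19%), 3 with length-corrected offsets (2.49%) and 6 with both that correction and the likelihood ratio test (6.36%), and 0 to 12 with 1 retina left out (0.291% to 8.84%). The number meeting every criterion was 0, against 1 with DESeq2, the likelihood ratio test, length-corrected offsets, both together or no fold change minimum, 2 with no filter on low counts, and 0 to 4 with 1 retina left out. Without YR613 the 4 were *Cacna1d*, *Cacnb4*, *Scn1a* and *Scn3a*, and without YR714 there were 3, the same genes except *Scn1a*. Over all tested genes 132 met every criterion, against 263 with DESeq2, 291 with the likelihood ratio test and 140 with length-corrected offsets. The number was 245 with the likelihood ratio test and length-corrected offsets, 188 with no fold change minimum and 38 to 516 with 1 retina left out. With no filter on low counts it was 369, of 30129 genes then tested. The log2 fold changes of *Cacna2d4* and *Cacnb2* reversed to -0.0339 and -0.11 with length-corrected offsets, with either test. The cause of these differences was not tested. Of the other values of the 12 channel genes chosen by the naming rule, 153 kept their direction and side of the threshold, 19 gained and 3 lost an adjusted p of at most 0.05. No paired analysis was possible because the groups share no replicate numbers. By the medians, the separation of the longest members rests on 4 of the 6 retinas, although in 6 of these 12 members the groups did not overlap in TPM. No member of a few counts, such as *Scn11a*, passed an adjusted p of 0.05. Some counts were chosen after seeing the data. They are the non-overlap counts after removal of the length curve, those among long genes, and list counts with the correction or without each retina.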

Other observations

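Markers of the remaining cell types differed in direction from list to list. The median log2 fold change was -0.05 for 5 astrocyte genes, of which *Aldh1l1*, a folate enzyme, was called lower (-0.79, adjusted p = 0.00436, edgeR). Whichever of the 6 retinas was left out, 1 gene of the astrocyte list passed. The median was 0.10 for 6 microglial genes, 0.02 for 6 endothelial genes and -0.19 for 8 genes of pericytes and smooth muscle. For 5 tested genes of myelinating and Schwann cells it was 0.25, and no gene of the lists after the astrocytes passed an adjusted p of 0.05. For the last of these lists the median was 0.13 with the length correction, when *L1cam* passed (adjusted p = 0.0432). In these lists, that of astrocytes apart, 1 endothelial gene and 1 gene of the myelinating and Schwann cell list passed without YR613. Without YR714 1 of the latter passed, and none did without any of the other 4 retinas. Of all tested genes 1.49% passed with every retina included and 2.49% with the length correction. Without YR613 8.84% passed, without YR714 5.89% and without any of the others 0.291% to 0.923%. These shares also apply to the lists that follow. Of 7 tested genes of the ciliary body non-pigmented epithelium, 3 were above and 4 below 0, with a median of -0.43 and of -0.27 with the length correction. The bicarbonate transporter gene *Slc4a4* passed (0.57, adjusted p = 0.0498), but not with the length correction (0.38, adjusted p = 0.0830). No gene of this list passed without YR612, YR615 or YR711, 2 did without YR613, and 1 did without YR713 or YR714. *Otx1*, *Zic2* and *Zic1*, which encode transcription factors, were lower in every cKO retina (-1.80, -0.56 and -0.46), with adjusted p of 0.0671, 0.101 and 0.0997 by edgeR. *Otx1* passed with the length correction (adjusted p = 0.0433), as did the water channel gene *Aqp1*, which was higher (0.38, adjusted p = 0.0310). All 7 melanin pigment genes were below 0, with a median of -1.10, and *Pmel*, which encodes the fibrils of the melanosome, was called lower (-1.90, adjusted p = 0.0347). The number of these genes that passed was 0 without YR612, YR615 or YR711, 2 without YR613, 3 without YR713 and 1 without YR714. For 6 genes of the retinal pigment epithelium the median was -0.46, and none passed, but without YR714 4 of the 6 did, and 0 without any other retina. Their summed level was 624.5, 692.2 and 656.1 TPM in the controls and 198.5, 362.3 and 674.9 TPM in the cKO retinas, so that YR714 lay within the range of the controls and the other cKO retinas below it.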
